A study of Mus musculus with 4 samples.

Results

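The tripartite motif family, written Trim in the mouse, is a large group of proteins that share a RING finger, 1 or 2 B-boxes and a coiled coil, and differ in what follows at their C-terminal end. The Trim genes were taken here as the protein-coding rows of the deposited table whose symbol is Trim, a number and at most a letter from a to d, with Trim25 left out. This gave 66 of the 48897 genes listed. They were measured in 4 RNA-Seq libraries of the retina of C57BL/6 mice (C57BL/6J in the methods of the study). On postnatal day 3, the left eye received 0.6 nmol of a miR-124-3p antagomir in 1 μl (anti-miR-124 group) and the right eye the same amount of a scrambled sequence (NC group), both by injection into the vitreous, and retinas were collected at postnatal day 9. The antagomir is a chemically modified antisense oligonucleotide that blocks the mature microRNA, whose level these libraries do not measure. All mice were wild type, each group pooled retinas of several mice from more than 1 litter, and there were 2 libraries per group. Every anti-miR-124 library is of left eyes and every NC library of right eyes, so the agent and the eye cannot be told apart. The libraries of a left and a right eye that share a number in the table are called pair A and pair B. Whether such a pair came from the same mice is not given in the sources used here. The libraries held 16317239 and 17150849 counts in pair A (NC, then anti-miR-124) and 17992340 and 18726963 in pair B.

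Most Trim proteins are ubiquitin ligases, in which the RING finger brings a ubiquitin-conjugating enzyme to a substrate that the C-terminal domain selects. Many carry a PRY-SPRY domain there, and a part of these are made in response to interferon and act on viral capsids or on the sensors of viral nucleic acid. Others carry NHL repeats, a COS box with a fibronectin domain, or a PHD finger with a bromodomain, and are known from neurons, the cytoskeleton and chromatin.

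In the postnatal retina, the abundant members of the family had nearly the same level in both groups, and the members whose fitted levels differed most were interferon-inducible ones. Among members that passed the low-count filter of the test in both groups, Trim21 had a fitted level in the anti-miR-124 group of 3.08 times that of the NC group, Trim12a one of 2.16 times and Trim12c one of 2.05 times. Trim30a, Trim30d and Trim34a, which lie in a gene cluster on chromosome 7 with Trim12a and Trim12c, had 6.12 to 7.19 times the NC level. These 3 passed the filter only through the anti-miR-124 libraries, so they had to be higher there, and all the values come from low counts. None of the 42 tested members had an adjusted p-value under 0.05, and neither did any of the 17766 genes tested (0%). The smallest adjusted p-value of a member was 0.989 (edgeR's quasi-likelihood test, Benjamini-Hochberg adjustment over all tested genes). The values below are therefore given as differences and with standard errors derived from the F statistic of the same test, and no member is called changed.

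Of the 66 members, 8 had no count in any library (Trim30b, Trim31, Trim40, Trim42, Trim43b, Trim52, Trim54 and Trim69), so their level was under the 3 counts per library that a count of 0 allows. Another 8 had at most 3 counts in their highest library (Trim34b, Trim38, Trim50, Trim55, Trim58, Trim60, Trim61 and Trim75). A further 8 had more but were too low for the filter of the test, which asked for 0.569 CPM (counts scaled to a library of fixed size) in 2 libraries (Trim5, Trim6, Trim10, Trim29, Trim43c, Trim63, Trim72 and Trim80). The other 42 were tested. The filter was passed in both groups by 37 of them. Trim30a, Trim30d, Trim34a and Trim43a passed only through the anti-miR-124 libraries, so they had to be higher there. Trim47 reached the cutoff in both anti-miR-124 libraries but, of the NC libraries, only in that of pair B. Counts over members are therefore given below for the 37.

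The promoters of the interferon-inducible members are shown first, since they include the members with the largest fitted differences. The letters GAAANNGAA, the core of the element that interferon regulatory factors bind, were searched on both strands in the 300 bases from 250 before to 50 after each RefSeq transcription start (GRCm38.p6). A window was found for 51 members. A gene was counted once, if any of its windows held the letters, and the shares are of genes. The interferon-inducible list was chosen with earlier results of these data known. The letters were present in 9 of the 13 interferon-inducible members with a window (69.2%), in 2 of the 38 others (5.26%), which were Trim2 and Trim7, and in 9.76% of the windows of 27025 genes. In capitals are the matching letters, and each line runs 5′ to 3′ on the strand of the gene, from 70 bases before to 30 bases from the start onwards. Trim5, which was not tested, is shown as a near copy of the Trim12a window.
Trim21, chr7:102565453-102565552, minus strand: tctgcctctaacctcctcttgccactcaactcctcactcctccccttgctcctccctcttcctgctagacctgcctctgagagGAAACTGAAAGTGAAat
Trim34a, chr7:104244387-104244486, plus strand: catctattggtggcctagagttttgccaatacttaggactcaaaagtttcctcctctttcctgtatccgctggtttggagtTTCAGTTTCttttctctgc
Trim5, chr7:104288077-104288176, minus strand: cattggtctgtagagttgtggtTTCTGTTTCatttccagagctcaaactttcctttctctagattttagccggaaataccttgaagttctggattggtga
Trim12a, chr7:104315466-104315565, minus strand: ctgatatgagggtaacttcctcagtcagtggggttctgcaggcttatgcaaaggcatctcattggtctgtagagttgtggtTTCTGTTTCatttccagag
Trim12c, chr7:104353320-104353419, minus strand: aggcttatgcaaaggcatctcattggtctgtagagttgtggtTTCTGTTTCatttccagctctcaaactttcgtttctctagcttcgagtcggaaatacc
Trim30a, chr7:104465164-104465263, minus strand: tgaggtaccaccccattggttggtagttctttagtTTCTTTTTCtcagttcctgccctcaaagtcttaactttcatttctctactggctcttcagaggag
Trim30d, chr7:104507820-104507919, minus strand: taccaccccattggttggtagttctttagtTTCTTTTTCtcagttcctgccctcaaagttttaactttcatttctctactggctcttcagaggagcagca
In Trim21, the only one of these outside the cluster, 2 overlapping matches lay on the strand of the gene, beginning 14 and 20 bases after the start. In the cluster genes, the match was on the other strand. It lay 12 bases after the start in Trim34a and Trim12a, and 28, 35, 40 and 48 bases before it in Trim12c, Trim30a, Trim30d and Trim5. Trim30a has another RefSeq start, not shown, with the same letters 4 bases after it. These windows are not independent of each other. Those of Trim5 and Trim12a share an unbroken run of 241 bases that includes the match, and those of Trim30a and Trim30d one of 118 bases that also includes it. Trim12c shares with Trim12a and with Trim5 a run of 63 bases that includes it as well, so the matches of these 3 are in copied sequence. Trim26 had its 2 matches 159 and 153 bases before the start, and Trim34b its match 211 bases before. The windows of Trim6, Trim30b, Trim38 and Trim56 held none, which says only that these letters are not in them. The letters TTCNNNGAA, the core of the gamma-activated element, were in 9.8% of the members' windows and in 9.55% of all windows.

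Trim30a, which is known to limit NF-kB signalling downstream of Toll-like receptors, had 9 (NC) and 32 (anti-miR-124) counts in pair A, and 3 and 62 counts in pair B. Both anti-miR-124 libraries were above both NC libraries. This was fixed in advance for Trim30a and Trim30d, which passed the filter only through the anti-miR-124 libraries. The log2 fold change was 2.85 (SE 0.58, unadjusted p = 0.00216 and adjusted p = 0.989 from edgeR). In pair B the ratio of the scaled counts was 19.8, with an exact 95% interval from counting error of 6.47 to 98.6, as it rests on 3 NC counts. Trim30d, its neighbour and paralogue, had 4 and 18 counts in pair A and 4 and 42 in pair B. The NC libraries had the same count, and the anti-miR-124 pair B library was the highest. The log2 fold change of Trim30d was 2.78 (SE 0.57, unadjusted p = 0.00229 from edgeR).

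Trim34a, an interferon-responsive relative of the primate restriction factor TRIM5, had 8 and 27 counts in pair A and 6 and 66 in pair B. The groups could not overlap, as Trim34a passed the filter only through the anti-miR-124 libraries. The anti-miR-124 pair B library was again the highest. Its log2 fold change was 2.61 (SE 0.54, unadjusted p = 0.0023 from edgeR). Trim12a and Trim12c are mouse relatives of TRIM5, which acts on retroviral capsids. Trim12c was the most abundant member of the cluster in counts, with 66 and 117 in pair A and 58 and 153 in pair B, a log2 fold change of 1.04 (SE 0.23, unadjusted p = 0.00362 from edgeR). Trim12a had 21 and 35 counts in pair A and 32 and 87 in pair B. Its NC pair B library and its anti-miR-124 pair A library were close, at 1.77 and 2.05 scaled CPM. The log2 fold change of Trim12a was 1.11 (SE 0.45, unadjusted p = 0.0447 from edgeR).

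**Figure D1:**
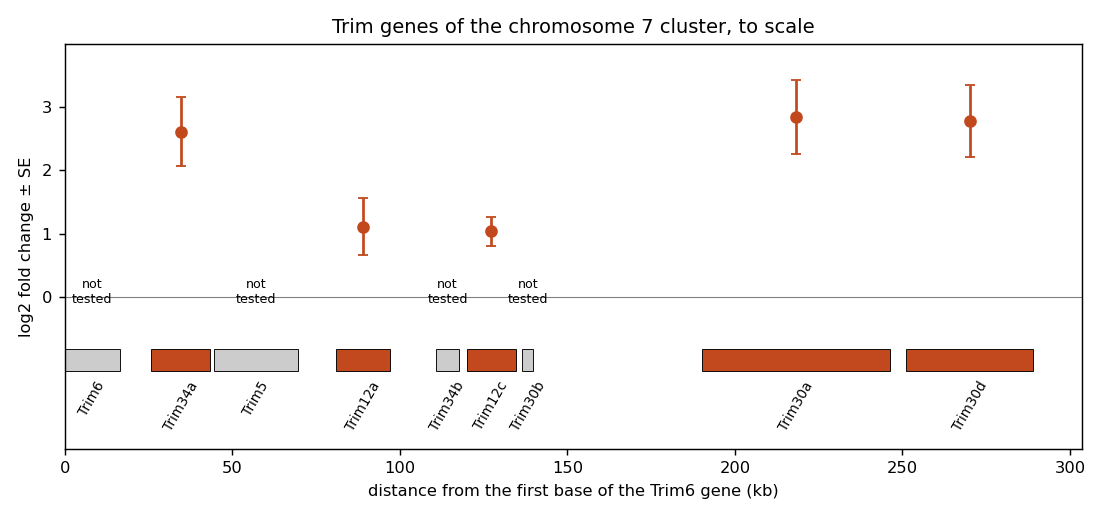
Log2 fold change (anti-miR-124 over NC, edgeR) with its standard error for the 5 tested genes of the chromosome 7 cluster, plotted over the middle of each gene, with the genes as boxes to scale in kb from the first base of Trim6. Tested genes are coloured, and genes with too few counts are grey. The 3 genes with values above 2 were Trim34a near one end and Trim30a and Trim30d at the other. All 3 passed the filter only through the anti-miR-124 libraries.

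The 9 members of this cluster occupied 289.1 kb of chromosome 7 (chr7:104218782-104507849) beside the beta-globin genes, in the order Trim6, Trim34a, Trim5, Trim12a, Trim34b, Trim12c, Trim30b, Trim30a and Trim30d. The summed level of the 9 was 7.451 and 13.41 scaled CPM in pair A and 6.036 and 23.18 in pair B. Trim6, which lies at the edge of the cluster and is known to act with the kinase IKKε, did not follow this order, with 9 and 0 counts in pair A and 3 and 17 in pair B. Trim5 had 3 and 0 counts in pair A and 3 and 9 in pair B. In both, the anti-miR-124 library was the lowest of the 4 in pair A and the highest in pair B, so the groups overlapped. The genes of this cluster are near copies of each other, and the counting of reads shared by Trim12a and Trim12c, by Trim30a, Trim30b and Trim30d or by Trim34a and Trim34b is not given in the sources used here, so the split between copies is uncertain. Trim34a also overlaps an antisense gene, which had 3 and 4 counts in pair A and 2 and 13 in pair B. The libraries were made with a directional kit, but the strand setting of the counting is not given in the sources used here.

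Outside the cluster, Trim21 is the cytosolic receptor for antibody-coated viruses and lies on another part of chromosome 7. It had 20 and 46 counts in pair A and 26 and 105 in pair B. The NC libraries were close to each other and below both anti-miR-124 libraries, which differed from each other by more than the NC libraries did. The log2 fold change of Trim21 was 1.62 (SE 0.42, unadjusted p = 0.00693 from edgeR). Trim56, which acts on the cGAS and STING pathway of DNA sensing, had 53 and 78 counts in pair A and 59 and 96 in pair B, a log2 fold change of 0.56 (SE 0.23, unadjusted p = 0.0477 from edgeR). Trim14, an adaptor of RNA sensing at mitochondria that has no RING finger, had 10 and 18 counts in pair A and 16 and 36 in pair B. Its log2 fold change was 0.97 (SE 0.45), with an unadjusted p of 0.0718 from edgeR. In Trim56 and Trim14 the groups did not overlap, but for Trim14 the NC pair B library and the anti-miR-124 pair A library were only 2 counts apart.

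Trim26, a gene of the major histocompatibility complex region whose product acts on IRF3, was by far the most abundant member of this list. Its counts were 833 and 984 in pair A and 1003 and 1177 in pair B, and on the CPM scale the groups did not overlap. The log2 fold change of Trim26 was 0.16 (SE 0.08, unadjusted p = 0.0858 from edgeR). Of the other listed members, Trim38 had 1 and 2 counts in pair A and 2 and 0 in pair B, and Trim34b had 1 count in all.

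**Figure D2:**
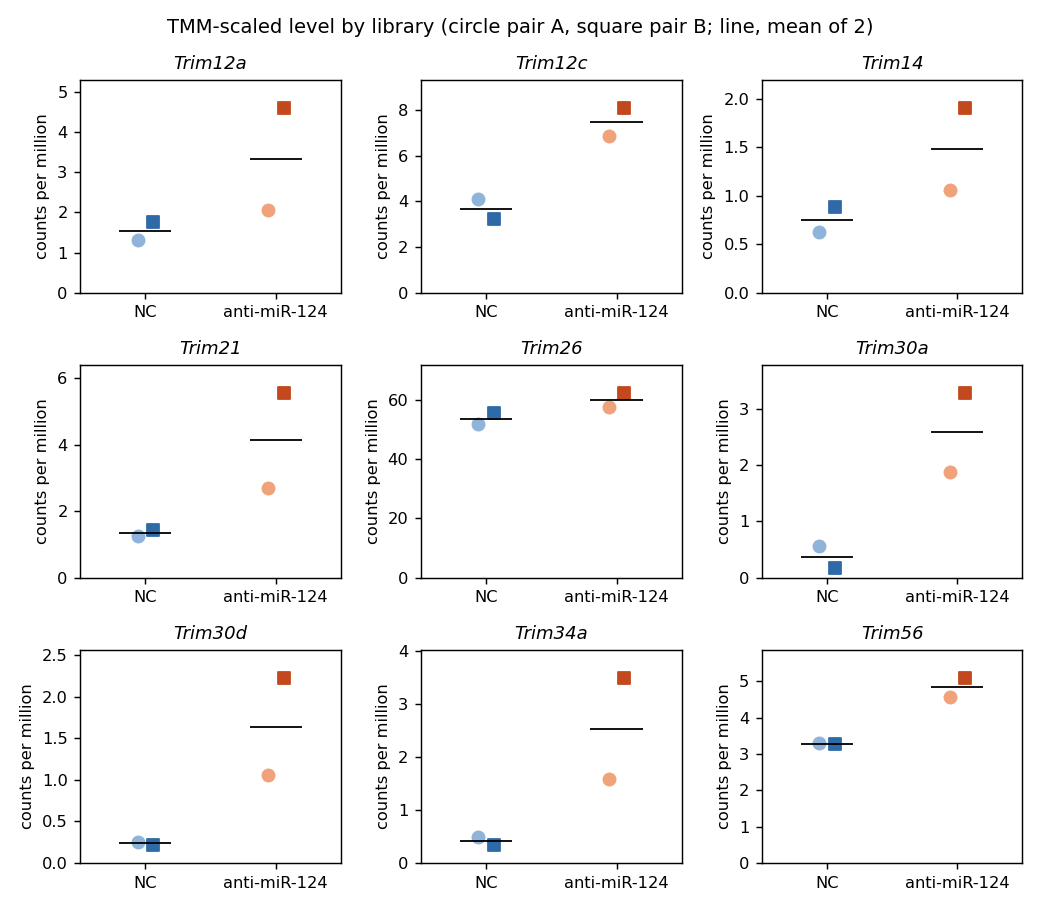
Level of each tested interferon-inducible Trim gene by library, in TMM-scaled CPM on a linear axis from 0, with circles for pair A, squares for pair B and a line at the mean of the 2 libraries of a group. In each panel both anti-miR-124 libraries lie above both NC libraries, with the square of pair B the highest. For Trim30a, Trim30d and Trim34a the groups had to separate, as they passed the filter only through the anti-miR-124 libraries.

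The list of interferon-inducible members held 14 of the 66, of which 9 were tested. It was written from their known biology, but with earlier results of these data known. The shares below therefore describe these members and are no independent support. Of the 6 that passed the filter in both groups, 6 were higher in both pairs and had groups that did not overlap, and 4 had an unadjusted p-value under 0.05 with a higher level (Trim12a, Trim12c, Trim21 and Trim56). Over all genes that passed in both groups, 22.7% were higher in both pairs, 16.5% did not overlap with the anti-miR-124 group higher, and 1.99% had such a p-value. The median log2 fold change of the 6 was 1.00, against 0.001 over those genes. Their median log2 ratio was 0.69 in pair A and 1.21 in pair B. With the 3 members that passed through the anti-miR-124 libraries alone, the median of the 9 was 1.11.

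Each of the 6 genes that passed in both groups (Trim12a, Trim12c, Trim14, Trim21, Trim26 and Trim56) had the higher level with anti-miR-124 in the 12 other settings tried, which include other scalings and each library left out in turn. The size depended on the libraries kept. Trim30a was lowest without the NC pair B library, at 2.195, and highest without the NC pair A library, at 3.898. Trim12c had its lowest and highest values, 0.867 and 1.211, without the same libraries. Trim56 ran from 0.478 to 0.634. Trim12a, Trim14, Trim21, Trim30d and Trim34a were lowest without the anti-miR-124 pair B library. Without it, the log2 fold change was 1.00 for Trim21, 0.41 for Trim12a, 0.47 for Trim14, 2.38 for Trim30a, 2.14 for Trim30d and 1.93 for Trim34a. Without the anti-miR-124 pair A library, it was 2.05 for Trim21, 1.58 for Trim12a, 3.19 for Trim30a, 3.21 for Trim30d and 3.07 for Trim34a. That fit leaves 1 library in the group, so only its fold changes are given. With all libraries kept, the edgeR adjusted p-values of Trim21, Trim30a, Trim30d and Trim34a were under 0.05 only without a filter on low counts and with a block for crossed replicate numbers. In the second of these, Trim30a, Trim30d and Trim34a had passed the filter only through the anti-miR-124 libraries.

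**Figure D3:**
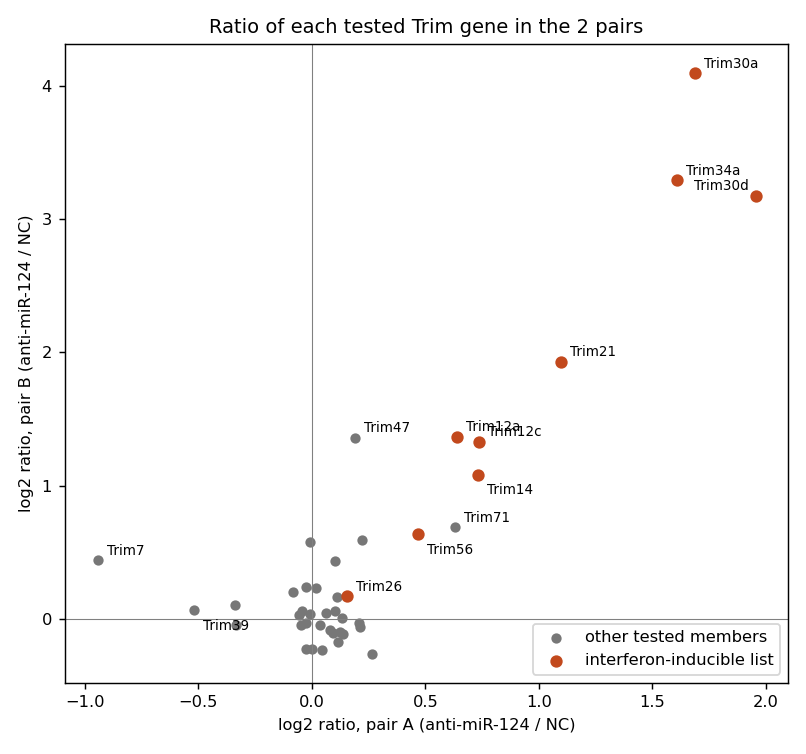
Log2 ratio of each of the 42 tested Trim genes (anti-miR-124 over NC, TMM-scaled CPM with a pseudocount of 0.5 counts) in pair A on the horizontal axis and pair B on the vertical axis, with the interferon-inducible list in red and the others in grey. The red points run from Trim26 at 0.16 and 0.17 to Trim30a at 1.69 and 4.10, and most grey points lie within 0.3 of 0 on both axes.

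These libraries are of whole retina, so a larger number of cells of a type and more RNA per cell cannot be told apart. Markers of other cells moved with the pairs. Of the microglia and macrophage list, 17 of 17 genes were tested. Their median log2 ratio was -0.13 in pair A and 1.60 in pair B. Their summed level was 158 and 149.7 CPM in pair A and 122.3 and 311.9 in pair B. Single genes of this list differed in pair A, from -1.13 for Tmem119 to 0.59 for Siglech. The medians given above for the interferon-inducible Trim genes that passed in both groups were 0.69 (pair A) and 1.21 (pair B). Each of these ratios compares 1 library with 1 other, and the part of the microglia in the Trim values was not tested for either pair. In the NC pair A library, lens genes made up 6.51% of all TPM, and at most 0.0183% in the others, so that TMM-scaled values were used for ratios. For red cell genes the median log2 ratio was 1.92 (pair A) and -0.57 (pair B). All 15 retinal neuron and Müller glia markers had at least 10 counts in every library.

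Per length, the most abundant Trim gene was Trim28, the corepressor that KRAB zinc finger proteins bring to retroelements. It had 239.8 and 269.5 TPM in pair A and 265.3 and 273.1 in pair B. On the TMM-scaled CPM scale it had 256.2 and 267.2 in pair A and 258.8 and 267 in pair B, and the groups did not overlap. The log2 fold change was 0.05 (SE 0.07). Trim44, which has a ubiquitin-binding zinc finger and no RING finger, had 222.6 and 261.5 TPM in pair A and 251.3 and 234 in pair B. Trim35 had 167.1 and 197.9 TPM in pair A and 196.4 and 180.8 in pair B. Trim28 and Trim44 had TPM ranges over the libraries that overlapped, but within each library Trim28 had the higher TPM. For Trim44 and Trim35 the pairs went opposite ways, and their log2 fold changes were 0.02 (SE 0.08) and 0.01 (SE 0.09). These 3 were the members at 100 TPM or more. In all, 23 members had a mean of at least 10 TPM, 15 had from 1 to under 10, and 20 were above 0 and under 1. All 66 together took between 2527 and 2662 scaled CPM in each library.

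Trim37, a ligase of peroxisomes and centrosomes, followed with 72.72 and 80.71 TPM in pair A and 84.56 and 71.68 in pair B. Its groups overlapped, and the log2 fold change was -0.09 (SE 0.09). It overlaps Ppm1e on the other strand, which had more counts than Trim37 in each library (2791 to 3622), so that its level is uncertain if the counting did not use strand. Trim32, in which mutations cause limb-girdle muscular dystrophy and have been linked to Bardet-Biedl syndrome, had 63.59 and 74.11 TPM in pair A and 71.62 and 63.23 in pair B. Its log2 fold change was -0.03 (SE 0.10), with overlapping groups. The means of Trim37 and Trim32, 77.42 and 68.13 TPM, differed by less than the range of either over the libraries. Within each library Trim37 had the higher TPM.

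**Figure D4:**
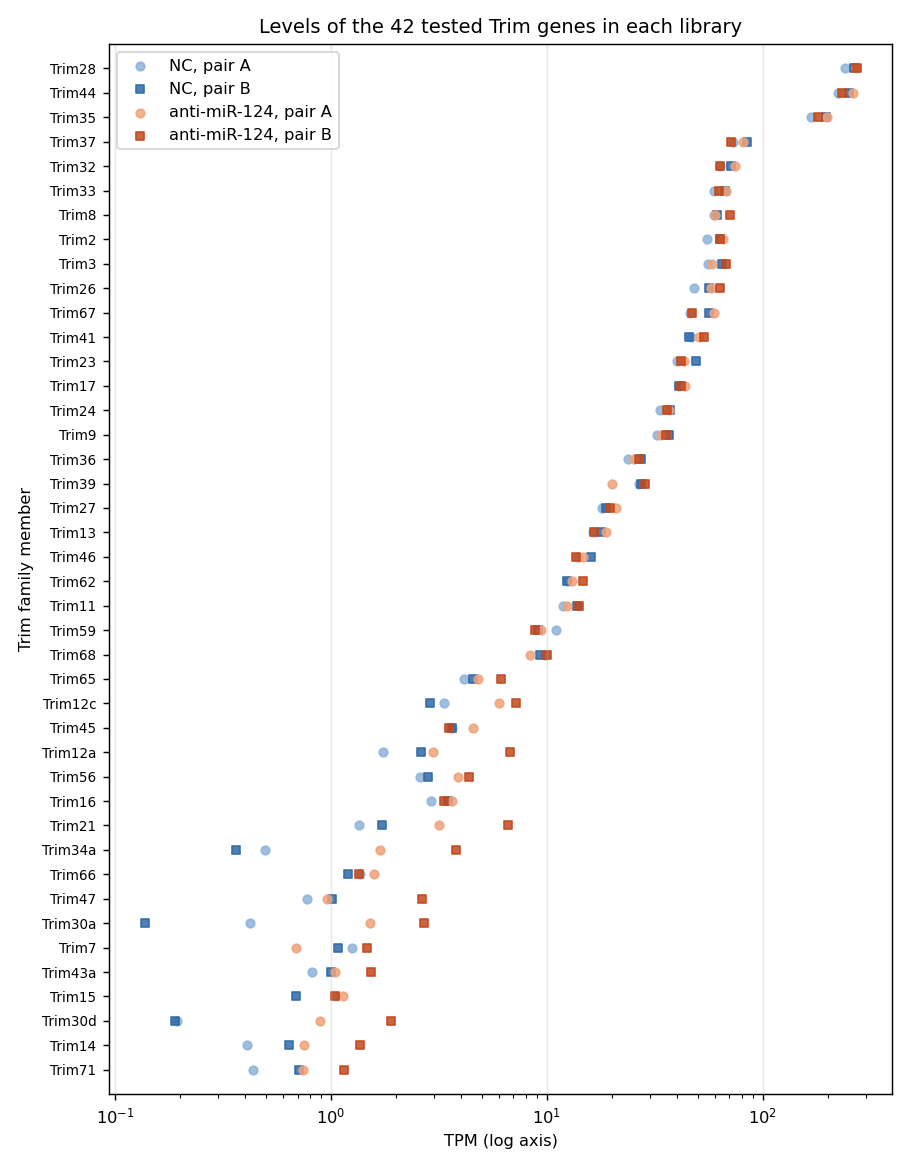
TPM of the 42 tested Trim genes in each library on a log axis, ordered by the mean, with circles for pair A, squares for pair B, blue for NC and orange for anti-miR-124. The 4 points of a gene lie close together for the abundant genes, and spread apart by group for Trim12a, Trim12c, Trim21, Trim30a, Trim30d and Trim34a at the lower end. Trim30a, Trim30d and Trim34a passed the filter only through the anti-miR-124 libraries.

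The members with NHL repeats are known from neurons and stem cells. Trim2, which acts on neurofilament light chain, had 4018 and 4675 counts in pair A and 4705 and 4943 in pair B, a log2 fold change of 0.07 (SE 0.07). Trim3, a neuronal relative, had one of 0.01. Trim71, the mouse LIN-41 and a classical target of let-7, was far lower, with 12 and 20 counts in pair A and 20 and 34 in pair B. Both pairs went the same way for Trim71, at log2 ratios of 0.63 and 0.69, but the NC pair B library and the anti-miR-124 pair A library had the same count. Its log2 fold change was 0.68 (SE 0.41, unadjusted p = 0.147 from edgeR), so no difference was shown. What size could be detected at its depth was not tested.

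The 4 members with a COS box and a fibronectin domain bind microtubules, and Trim9, Trim46 and Trim67 are known from axons. Trim67 had 2337 and 2977 counts in pair A and 2946 and 2567 in pair B, a log2 ratio of 0.27 in one pair and -0.26 in the other. Trim46, which organises microtubules at the start of the axon, was the only tested member with both anti-miR-124 libraries below both NC libraries. It had 282 and 294 counts in pair A and 332 and 296 in pair B, a log2 fold change of -0.13 (SE 0.11, unadjusted p = 0.289 from edgeR). Trim9 and Trim36 had log2 fold changes of -0.05 and -0.03.

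Of the chromatin members with a PHD finger and a bromodomain, Trim24 and Trim33 had log2 fold changes of -0.003 and -0.002 (SE 0.07 and 0.08) and Trim66 one of 0.14 (SE 0.24). The membrane members were Trim13, a ligase of the endoplasmic reticulum, with 159 and 180 counts in pair A and 178 and 173 in pair B, and Trim59, with a log2 fold change of -0.20 (SE 0.16). Of the 3 with an ARF, MATH or filamin domain, Trim23 and Trim45 had -0.12 and 0.10. Among members tied to receptor and NF-kB signalling, Trim8, Trim27, Trim62 and Trim65 had log2 fold changes of 0.06 to 0.28, and Trim39 had -0.20 (SE 0.16). The value of Trim39 came from pair A, with 542 and 401 counts, while pair B had 569 and 623. Trim65, which acts on the RNA sensor MDA5, had 80 and 91 counts in pair A and 90 and 127 in pair B.

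The muscle members were at or near the floor. Trim54 had no count, Trim55 and Trim63 had at most 3 and 6 counts in a library, and Trim72, which repairs muscle membranes, had 6 and 3 counts in pair A and 6 and 4 in pair B. Those of red cell precursors, Trim10 and Trim58, had at most 9 and 2. No fold change is given for these.

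**Figure D5:**
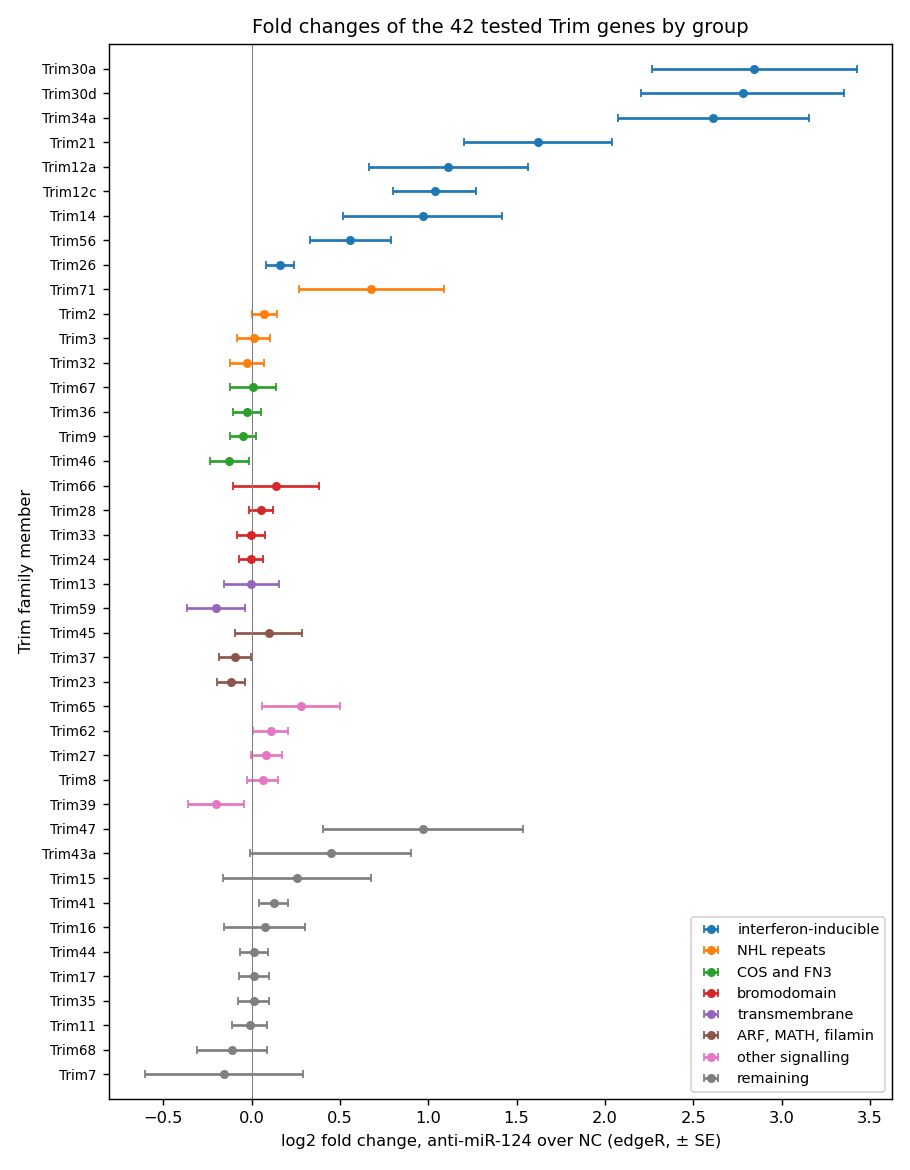
Log2 fold change (anti-miR-124 over NC) with its standard error for the 42 tested Trim genes, coloured by group and ordered within a group by value. The interferon-inducible genes run from 0.16 to 2.85, and 30 of the 33 other genes lie within 0.3 of 0.

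Outside the interferon-inducible list, 33 members were tested, and their log2 fold changes ran from -0.20 for Trim39 and Trim59 to 0.97 for Trim47. Of the 31 that passed the filter in both groups, 0 had an unadjusted p-value under 0.05 in either direction, 7 were higher in both pairs and 4 lower. Over all genes that passed in both groups these shares were 1.99% and 1.6% for the p-values and 22.7% and 24% for the pairs. The groups did not overlap for 5 with a higher level (Trim2, Trim28, Trim41, Trim65 and Trim71) and for 1 with a lower level (Trim46), against 16.5% and 17%. Their median log2 fold change was 0.01. The lower-side counts were below these shares, as was the higher-side count of p-values. With 31 members this is not read as a result. Trim47 had 9 and 11 counts in pair A and 12 and 33 in pair B, under the filter cutoff only in the NC pair A library. Its value rests on 1 library (SE 0.56, unadjusted p = 0.132 from edgeR). Trim43a, which passed through the anti-miR-124 libraries alone, had 8 and 10 counts in pair A and 10 and 16 in pair B. Its groups did not overlap on the CPM scale.

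Over the 42 tested members, 7 had an unadjusted p-value under 0.05 with a higher level (2.23% of all tested genes), and 0 with a lower level (1.68%). Without the NC pair A library, which holds the lens transcripts, the log2 fold changes of these 7 ran from 0.555 for Trim56 to 3.898 for Trim30a. Without the anti-miR-124 pair B library, in which the microglia list was highest, they ran from 0.407 for Trim12a to 2.381 for Trim30a. Each of these fits leaves 1 library in a group, so only fold changes are given. Higher in both pairs were 18 members (22.8% of all tested genes) and lower 4 (24%), and the groups did not overlap for 15 with a higher level (16.5%) and 1 with a lower level (16.8%). As stated, Trim30a, Trim30d, Trim34a and Trim43a could pass only by being higher.

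The genes around the family were taken from lists of its known partners, chosen after earlier results of these data had been seen. The conjugating enzyme of ISG15 was added to the list of ubiquitin-conjugating enzymes. Of 10 ubiquitin-conjugating enzymes, 1 had an unadjusted p-value under 0.05, Ube2l6, the enzyme for the ubiquitin-like protein ISG15, with a higher level (2.23% of all tested genes). It had 35 and 84 counts in pair A and 48 and 93 in pair B, a log2 fold change of 1.02 (SE 0.25, unadjusted p = 0.00521 from edgeR). The other 9, among them Ube2d1, Ube2d3 and Ube2n, had log2 fold changes between -0.12 and 0.07. Of 14 sensors and signalling proteins on which Trim ligases act, 3 had such a p-value with a higher level (2.23% of all tested genes) and 1 with a lower level (1.68%). The 3 were the RNA sensors Ddx58, with a log2 fold change of 1.74 (SE 0.28), and Ifih1, with 1.82 (SE 0.42), and the interferon regulatory factor Irf7, with 3.34 (SE 0.56). The 1 lower was the kinase Tbk1, at -0.22 (SE 0.07), and the adaptor Mavs, with 0.11, the factor Irf3, with 0.003, and the other 8 had no such p-value. Pml, a relative with the same tripartite fold that the name rule does not hold, had 194 and 211 counts in pair A and 180 and 271 in pair B, a log2 fold change of 0.28 (SE 0.16), and its relatives Mid1 and Mid2, ligases of microtubules, had 0.04 and -0.01.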

How the data were processed

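Reads counted on each gene of 4 retina libraries (2 of the anti-miR-124 group, 2 of the NC group) were deposited by the authors as raw counts without normalization, with gene lengths and positions. The submitters' processing notes name HISAT2 and mm9, but the positions of all 66 members overlap RefSeq GRCm38, and the counting tool is not given in the sources used here. The 4 RPKM columns were not used. Columns were assigned to groups by the eye they name. The libraries were not duplicates (chi-square per degree of freedom of 3.44 or more). TPM was derived from counts and gene lengths. Genes were tested with edgeR 4.0.16 (R 4.3.3) as a two-sided quasi-likelihood test on counts with TMM normalization and filterByExpr, without covariates, with Benjamini-Hochberg adjustment over 17766 genes and a threshold of 0.05, and the script was tested on simulated data. Each standard error (SE) is the absolute log2 fold change over the square root of the F statistic of this test. It therefore restates the unadjusted p-value and is no separate measure of spread. Ratios within pairs used TMM-scaled CPM (pseudocount 0.5 counts). Alternatives were other scalings and filters, DESeq2 1.42.0, a block for the replicate number and each library left out. With 2 libraries per group of pooled retinas, p-values measure only the spread between these libraries, which may be technical, and intervals cover counting error only. Members and lists were chosen with earlier results of these data known. Named with values in every library are the tested interferon-inducible members, members with groups that do not overlap and an absolute log2 fold change of at least 0.5, those with an unadjusted p-value under 0.05, the most abundant of each domain group and the 5 most abundant. Trim2, Trim5, Trim6, Trim38, Trim39, Trim43a, Trim46, Trim47, Trim65, Pml and Ube2l6 were given values in every library after these were seen. Sequences are from RefSeq (GRCm38.p6), and motifs were searched with Python 3.11.15.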

Additional observations from a re-analysis of the deposited data

How the results depend on the processing

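No member had an adjusted p-value under 0.05 with the other scalings, with a mean of at least 10 counts as the filter, with DESeq2 (36 of all genes, smallest member value 0.114) or with the replicate block (unadjusted, 6 members). There were 5 (Trim12c, Trim21, Trim30a, Trim30d and Trim34a) without a filter on low counts, where 379 genes passed, and 5, the same genes, with a block for the crossed numbers, where 160 genes passed. Leaving out each library gave 0 to 4, the 4 (Trim21, Trim30a, Trim30d and Trim34a) without the anti-miR-124 pair A library, where 235 genes passed and 1804 had an unadjusted p-value under 0.05, against 0 and 694 with all libraries. The deviations of same-numbered libraries had a correlation of -0.16, which gives no sign that the numbers pair them, and whether they mark the same mice is not stated. The replicate block changed no adjusted call. Leaving out each library, the median log2 fold change of the tested members was 0.042 to 0.097 and that of the interferon-inducible ones 0.91 to 1.58. Members lower in both pairs were 1 with TPM, where the lens transcripts of an NC library lower all other values of that library. Without a filter they were 9 of 58 members, where 31.3% of all genes were lower in both pairs. Members higher in both pairs were 18 of 42 with TMM and 24 of 42 with TPM, where 32.3% of all genes were higher in both pairs and 14.8% lower. The log2 fold changes near 0 changed sign in places. Trim13 was at 0.006 with total counts and without a filter. Leaving out each library, the log2 fold change ranged from -0.104 to 0.096 for Trim13, from -0.156 to 0.093 for Trim32, from -0.179 to 0.178 for Trim67, from -0.078 to 0.103 for Trim44 and from -0.066 to 0.085 for Trim35. The cause was not tested. With 2 libraries per group and at most 66 counts in a library for Trim30a, Trim30d and Trim34a, the counting error is large. The members too low for the filter were not tested for a difference.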
